A study of Mus musculus with 6 samples.

Results

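Il34, Csf1 and Csf1r encode interleukin-34, colony-stimulating factor 1 and the receptor that both cytokines bind. They were measured by RNA-seq in the renal cortex of 6 C57BL/6 mice. All 6 mice were fed for 8 weeks on HF/HC/HS/BA, a diet high in fat and cholesterol to which bile salt is added. The HS part of that label, which all 6 mice share, is not spelled out here. In the tofogliflozin group (3 mice) the diet also contained tofogliflozin, an inhibitor of the glucose transporter SGLT2, and the diet group (3 mice) served as its control. No allele other than the C57BL/6 background is named, the sources used here give no age, and no standard-diet group was analysed. The 3 genes were taken by symbol from the 24346 genes listed, and each was found once and passed the filter on low values (1 FPKM or more in 3 or more libraries; FPKM is a fragment count scaled to transcript length and library size), as did 12248 genes in all. They had been selected on values of this same comparison, in particular the lower Il34 with the drug. Their differences between the groups are therefore given as a description. Where the fit across all genes gives a member a p-value, it comes from that same comparison and is not read as a test.

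CSF1R is a receptor tyrosine kinase of monocytes, macrophages and microglia, and its signal is needed for the survival and proliferation of most tissue macrophages. CSF1 and IL-34 share little sequence but bind overlapping regions of the receptor. In the kidney, tubular epithelial cells are a known source of both cytokines, and macrophages are the main cells that carry the receptor. The series title names inflammation of the kidney as one of its subjects, and these genes belong to that question.

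Of the 3 members, Csf1 had an entry in the RefSeq promoter table (GRCm38.p6). The bases before its start site are printed because Csf1 is known to respond to NF-κB, whose pathway genes are described further on. The stretch is chr3:107760470-107760719 on the minus strand, 250 bases written 5′ to 3′ along the gene and ending at the base before the annotated start. Capitals mark matches on either strand to GGG, any 5 bases and CC, the core of NF-κB sites.
Csf1: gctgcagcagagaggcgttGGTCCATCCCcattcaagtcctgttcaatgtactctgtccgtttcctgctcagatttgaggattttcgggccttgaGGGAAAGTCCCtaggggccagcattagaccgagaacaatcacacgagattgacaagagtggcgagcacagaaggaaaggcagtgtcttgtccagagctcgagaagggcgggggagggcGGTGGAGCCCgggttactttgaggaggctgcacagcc
The middle capitals hold 2 overlapping matches, GGGAAAGTCC from 155 to 146 bases before the start and GGAAAGTCCC on the opposite strand from 154 to 145. These letters are common: 50.8% of the 32851 promoter windows in the table, all of the same length, held a match. The whole Csf1 window, which runs 50 bases past the start, had 5 matches to them and 0 to TGANTCA (AP-1, in 7.81% of windows), GAGGAAGT (PU.1, in 3.20%) or the PPAR direct repeat (in 0.0396%), each searched on both strands. No binding was measured here, and a match of letters does not show a site in use.

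Il34 was the member with the widest difference. It was at 36.0, 16.4 and 23.5 FPKM in diet replicates 1, 2 and 3 and at 7.02, 10.7 and 6.02 FPKM in tofogliflozin replicates 1, 2 and 3. The lowest diet library lay above the highest tofogliflozin library, and diet replicate 1 stood far above the rest. The mean was 25.3 ± 9.91 FPKM on the diet and 7.90 ± 2.45 FPKM with tofogliflozin (SD, n = 3 per group), so the diet mean was 3.20 times the other. On the log2(FPKM + 1) scale the difference, tofogliflozin minus diet, was -1.53 ± 0.28 (SE, 95% interval -2.17 to -0.89), the 11th most negative of the 12248 genes tested.

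Csf1, the other ligand, was at 3.22, 4.44 and 2.31 FPKM in diet replicates 1, 2 and 3 and at 2.63, 3.14 and 2.03 FPKM in tofogliflozin replicates 1, 2 and 3. The groups overlapped: diet replicate 3 lay below tofogliflozin replicates 1 and 2. Means were 3.32 ± 1.07 and 2.60 ± 0.557 FPKM (SD, n = 3 per group). The log2 difference was -0.25 ± 0.20 (SE, 95% interval -0.70 to 0.21), an interval that holds 0. It was -0.06 without diet replicate 2 and -0.42 without diet replicate 3.

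Csf1r was at 17.5, 20.2 and 17.7 FPKM in diet replicates 1, 2 and 3 and at 13.4, 15.6 and 11.1 FPKM in tofogliflozin replicates 1, 2 and 3. As with Il34, every tofogliflozin library was below every diet library, but the gap was narrow. The means of 18.4 ± 1.5 and 13.4 ± 2.24 FPKM (SD, n = 3 per group) stood at a ratio of 1.38, and the log2 difference was -0.45 ± 0.12 (SE, 95% interval -0.73 to -0.17). Reads of a cortex sample come from all its cells, so fewer cells of a type and less RNA per cell cannot be told apart for any of these genes.

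**Figure D1:**
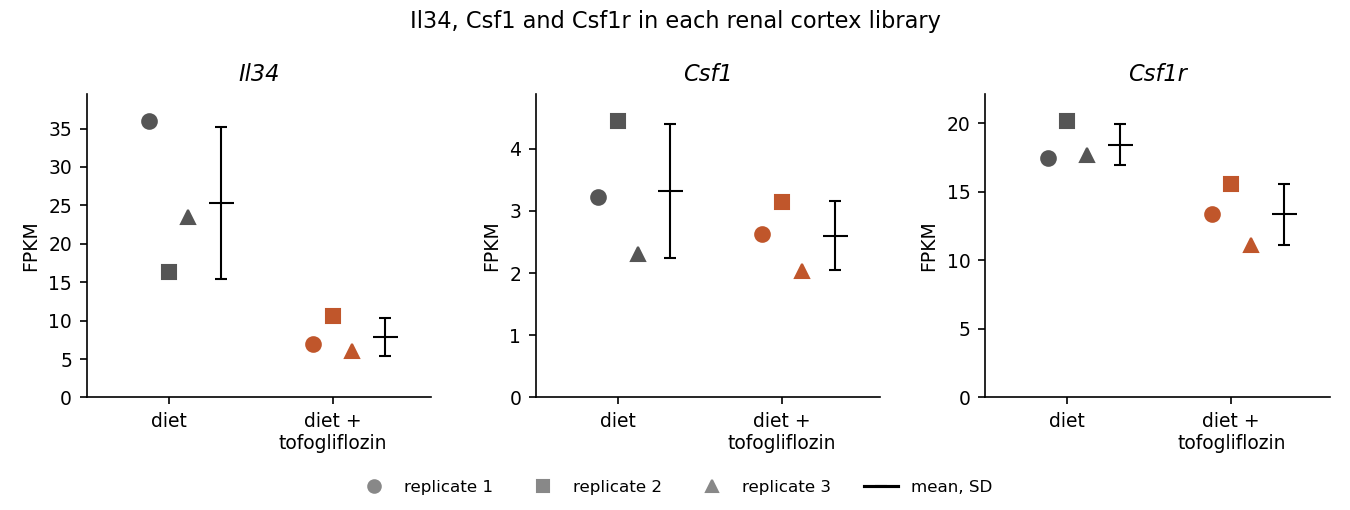
FPKM of Il34, Csf1 and Csf1r in each library, with the group (diet, or diet with tofogliflozin) on the x axis and a marker shape for each replicate; the bar beside the points is the mean with its SD. Il34 runs from 6.02 to 36.0 FPKM with the groups apart, Csf1 overlaps between the groups, and Csf1r is apart by a narrow gap.

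Thus 2 of the 3 members, Il34 and Csf1r, had all tofogliflozin libraries below all diet libraries, as 8.86% of all tested genes did, while 9.63% had the reverse. In the fit across all genes 31 genes passed an adjusted p of 0.05 (0.253%; limma, Benjamini-Hochberg), 24 higher and 7 lower, and 0 of the 3 members were among them. At an unadjusted limma p under 0.05 there were 2 of the 3 members and 1604 of the 12248 genes tested. The list counts at this limit further on are to be read beside that share. With a library left out, 2 genes (without tofogliflozin replicate 3) to 70 genes (without diet replicate 2) passed. Il34 was among those that passed without diet replicate 2, which is the diet library nearest to the tofogliflozin group in Il34, and in no other setting tried. Since the members were chosen from this contrast, nothing is read from these counts.

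FPKM is scaled per length, so levels of the 3 genes may be set side by side. In diet replicates 1 and 3 Il34 was the highest of the 3. In the other 4 libraries Csf1r was the highest, and Csf1 was the lowest in all 6. The mean Il34 level was above that of 73.6% of tested genes on the diet and of 41.6% with tofogliflozin. Csf1r moved from above 66.1% to above 57.3%, and Csf1 from above 19.99% to above 14.97%.

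The balance of the ligands differed with the library. Il34 FPKM was 11.2, 3.69 and 10.2 times Csf1 FPKM in diet replicates 1, 2 and 3, and 2.67, 3.39 and 2.96 times with tofogliflozin. The tofogliflozin libraries were close together at 3.01 ± 0.365 (SD, n = 3), and diet replicate 2 lay just above them, far from the other diet libraries. Il34 made up 91.8%, 78.7% and 91.1% of the summed ligand FPKM on the diet and 72.7%, 77.2% and 74.8% with tofogliflozin. Over the groups the log2 ratio of Il34 to Csf1 differed by -1.32, and it differed by -1.83 without diet replicate 2.

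Against the receptor, Il34 stood at 2.06, 0.812 and 1.33 times Csf1r FPKM on the diet and at 0.525, 0.685 and 0.542 times with tofogliflozin, with the groups apart. Csf1 stood at 0.184, 0.220 and 0.130 times Csf1r on the diet and at 0.197, 0.202 and 0.183 times with tofogliflozin, where the tofogliflozin values all lay inside the diet range. These ratios are built from the values that chose the members and are a description too.

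**Figure D2:**
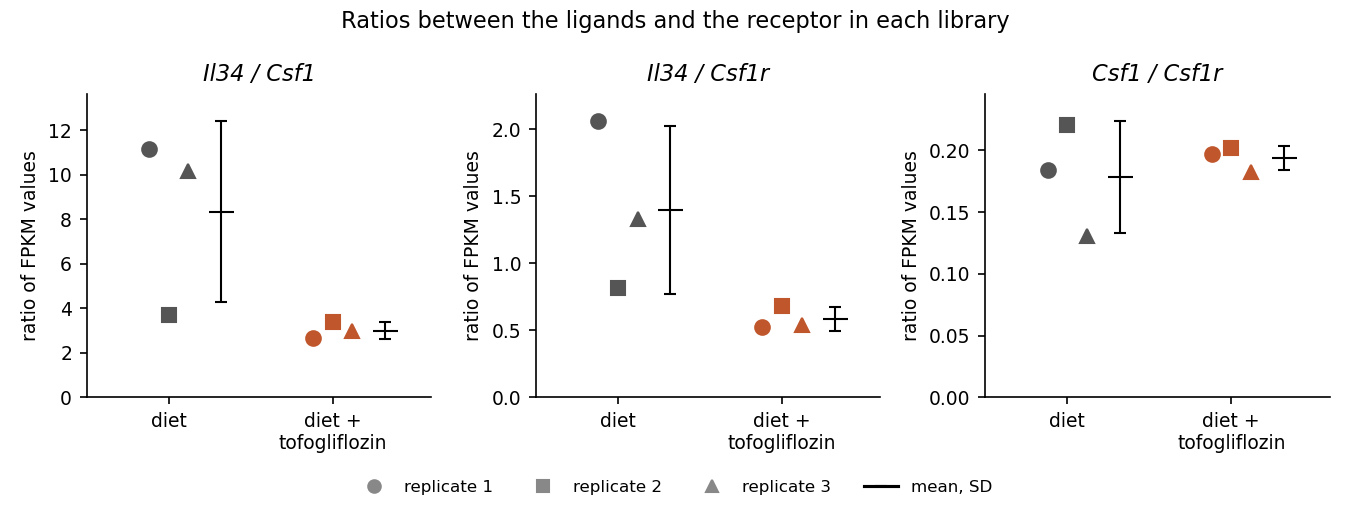
Ratios of FPKM values within each library for Il34 to Csf1, Il34 to Csf1r and Csf1 to Csf1r, by group, with a marker shape for each replicate and a bar for the mean with its SD. For Il34 to Csf1, diet replicates 1 and 3 sit at 11.2 and 10.2 and all other libraries between 2.67 and 3.69; for Csf1 to Csf1r the groups overlap.

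The spread within a group was not itself the ground for choosing the members, but it comes from the same values. Choosing Il34 for its difference can favour a gene that varies widely between libraries. The spread and its rank among tested genes are therefore given as a description too. Il34 had a coefficient of variation of 39.2% among the diet libraries, above that of 95.7% of tested genes, and of 31.0% among the tofogliflozin libraries (above 95.2%). Over all tested genes the median was 9.82% on the diet and 8.21% with tofogliflozin. Csf1 was nearly as variable, at 32.3% and 21.4%, and Csf1r had 8.16% on the diet and 16.7% with tofogliflozin. Depth, estimated from how the lowest values are spaced, was about 7650000 to 9900000 fragments in a library. On the longest coding transcript of Il34 (1796 bases) its values then rest on about 93.2 to 494 fragments, for which counting alone gives an error of 4.50% to 10.4%. For Csf1 (4176 bases) about 73.1 to 142.5 fragments give 8.38% to 11.7%, and for Csf1r (4701 bases) about 450 to 728 fragments give 3.71% to 4.71%. The spread of Il34 was wider than this counting error in both groups. For Csf1 that depends on the transcript: on its shortest coding transcript (773 bases) counting alone would give 19.5% to 27.2%, which reaches the spread of the tofogliflozin libraries. On the shortest coding transcript of Csf1r (416 bases) it would give 12.5% to 15.9%, which is above the spread of Csf1r among the diet libraries. For Il34 the shortest coding transcript (1709 bases) is nearly as long as the longest. These errors rest on an estimated depth.

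On the diet the members put the libraries in different orders. Diet replicate 2 was the diet library with the most Csf1 and the most Csf1r and the least Il34. Diet replicate 3 had the least Csf1 of its group and more Il34 than replicate 2. With tofogliflozin, replicate 2 had the most and replicate 3 the least of all 3 genes.

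Diet replicate 2 was also the library richest in macrophage RNA. The 25 macrophage marker genes summed to 252, 479 and 171 FPKM in diet replicates 1, 2 and 3 and to 198, 225 and 163 FPKM with tofogliflozin, so the groups overlapped. Timd4, a marker of some resident macrophages, was listed at 0 in all 6 libraries, and the scavenger receptor gene Cd163 did not exceed 0.111 FPKM. Ptprc, the pan-leukocyte gene for CD45, was at 3.59, 6.95 and 3.08 FPKM on the diet and at 3.74, 3.70 and 3.20 FPKM with tofogliflozin. Diet replicate 2 again stood apart. It also had the highest summed monocyte, dendritic cell and lymphocyte markers, at 33.2, 12.7 and 12.1 FPKM. Its summed neutrophil markers were the lowest, at 6.36 FPKM. The part of diet replicate 2 in the results for the members was not tested beyond leaving it out.

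Csf1r, itself a macrophage gene and not on that list, equalled 6.92%, 4.21% and 10.4% of the marker sum in diet replicates 1, 2 and 3. With tofogliflozin it equalled 6.74%, 6.92% and 6.81%, which is nearly constant. Csf1r was thus low relative to the marker sum in diet replicate 2 and high in diet replicate 3. Abundant markers weigh most in that sum, such as Lyz2, at 88.9 FPKM in diet replicate 2 and 17.7 FPKM in diet replicate 3. Csf1 equalled 1.28%, 0.927% and 1.35% of the marker sum on the diet and 1.33%, 1.40% and 1.25% with tofogliflozin. For Il34 the same share was 14.3%, 3.42% and 13.8% on the diet and 3.54%, 4.74% and 3.69% with tofogliflozin, so diet replicate 2 fell just below the tofogliflozin range.

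**Figure D3:**
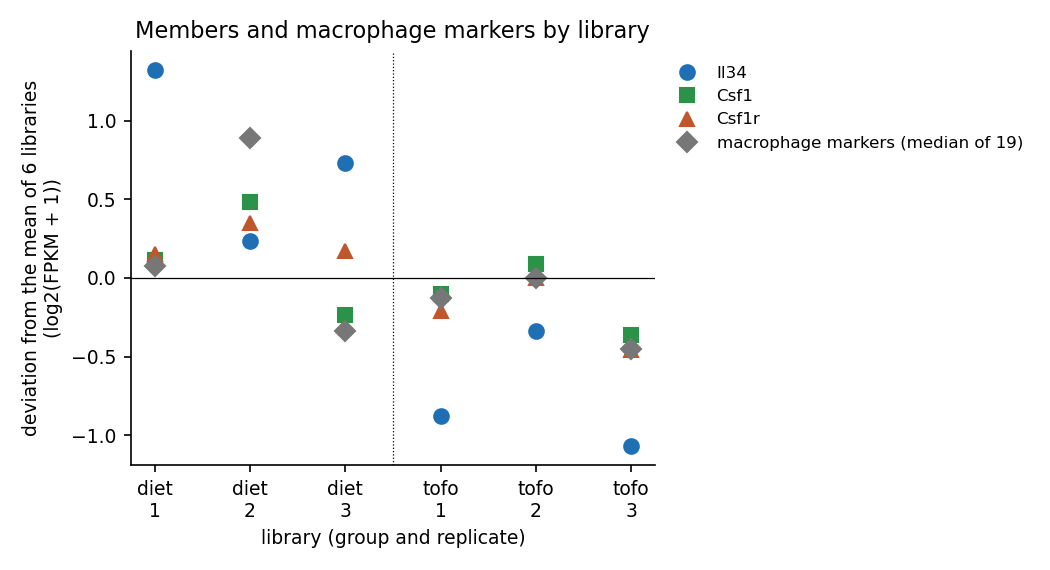
Deviation of Il34, Csf1, Csf1r and the median of 19 tested macrophage markers from their own mean over the 6 libraries, on the log2(FPKM + 1) scale, for each library on the x axis. In diet replicate 2 the markers reach 0.89 and Il34 0.24, while in diet replicate 1 Il34 reaches 1.32 and the markers 0.08.

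Each member was next set against the 19 macrophage markers that passed the filter, by Pearson's r of log2(FPKM + 1) over the 6 libraries. These values describe 6 points that share library and depth, and the markers are not independent of each other. Not all of them moved alike, as their r with Csf1 ran from -0.29 to 0.997. Csf1 had the highest values, with a median r of 0.93 and an r above 0 for 18 of 19 markers. Its median was 0.93 after the mean of each group was removed and 0.82 without diet replicate 2. Csf1r had a median of 0.66 (17 of 19 above 0), of 0.63 within groups and of 0.41 without diet replicate 2. Il34 had a median of 0.28 (16 of 19 above 0), of -0.29 within groups and of 0.40 without diet replicate 2, where it is close to that of Csf1r. Against all other tested genes the median r was 0.02 for Il34, -0.03 for Csf1 and -0.01 for Csf1r. Such values were not particular to macrophage markers. For Csf1 the median r was 0.84 with 3 dendritic cell markers, 0.81 with 4 monocyte chemokines and 0.80 with 3 monocyte markers. Csf1r had 0.68 with 16 NF-κB pathway genes (0.59 without diet replicate 2). Il34 had 0.42 with the chemokines and 0.37 with the NF-κB genes. With 10 proximal tubule markers the medians were 0.07 for Il34, 0.01 for Csf1 and 0.14 for Csf1r.

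**Figure D4:**
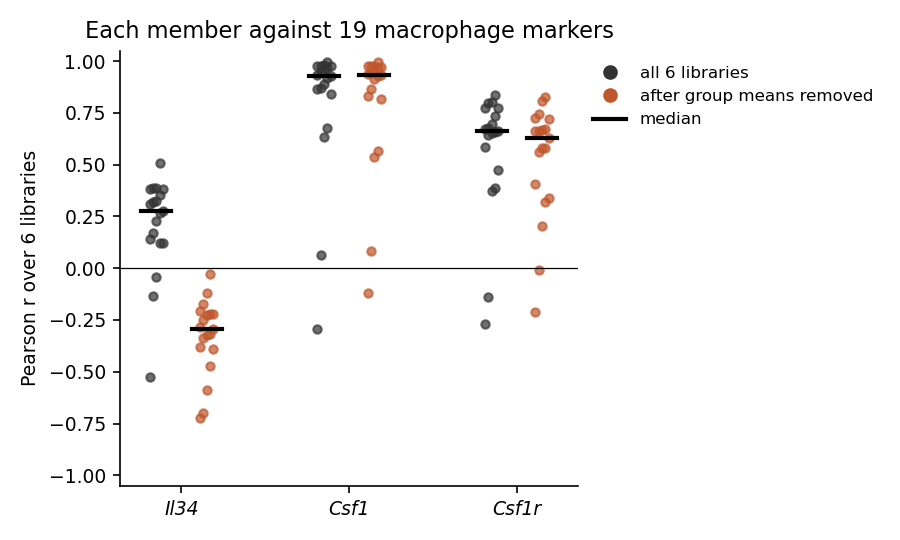
Pearson's r over the 6 libraries between each member and each of 19 macrophage markers, before and after the group means were removed; points are markers and the bars are medians. The medians are 0.93 and 0.93 for Csf1, 0.66 and 0.63 for Csf1r, and 0.28 and -0.29 for Il34.

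The genes whose pattern over the 6 libraries was most like that of each member were taken from all tested genes by r. For Csf1 the most alike was C1qa, a subunit of complement C1q made by macrophages, at 36.0, 53.6 and 22.0 FPKM on the diet and 27.3, 32.7 and 19.6 FPKM with tofogliflozin (r = 0.997, and 0.994 without diet replicate 2). Next came Glipr1 (r = 0.992), the interferon-inducible gene Xaf1 (0.991), the F-box gene Fbxl17 (0.988) and the proton-sensing receptor gene Gpr65 (0.987). In all, 58 genes had an r above 0.95 with Csf1.

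For Il34 the most alike was Ppt2, a lysosomal thioesterase gene, at 138, 118 and 126 FPKM on the diet and 99.7, 109 and 97.3 FPKM with tofogliflozin (r = 0.999). Ppt2 followed the order of Il34 in every library but over a far narrower range. C1rl, a gene related to complement C1r, had an r of 0.997, Pyroxd2, an oxidoreductase gene, 0.997, Lztr1, an adaptor of a ubiquitin ligase, 0.996, and Slco3a1, an organic anion transporter gene, 0.995. Of all genes 165 had an r above 0.95 with Il34. None of the 5 named is on the macrophage list, nor is any gene named below for Csf1r. Of those named for Csf1, only C1qa is on it.

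For Csf1r the nearest was Lpxn, which encodes leupaxin, at 2.15, 2.46 and 2.12 FPKM on the diet and 1.6, 1.96 and 1.41 FPKM with tofogliflozin (r = 0.993). Bbs7, a BBSome subunit gene, had an r of 0.985, Kdm8 0.984, Tmppe 0.974 and Prex1, a Rac exchange factor gene, 0.973. With Csf1r 24 genes had an r above 0.95. These names describe 6 libraries searched over 12248 genes.

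Other binding partners of IL-34 were low. Ptprz1, a receptor phosphatase that binds IL-34 in the brain, did not exceed 0.0447 FPKM in any library. Sdc1, which encodes the proteoglycan syndecan-1, was at 3.82, 3.68 and 3.51 FPKM on the diet and 3.21, 2.96 and 2.59 FPKM with tofogliflozin. Its groups were apart, and its log2 difference of -0.26 ± 0.10 (SE) did not pass over all genes (limma adjusted p = 0.339).

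Downstream of the receptor, 24 of 26 signalling genes passed the filter, 11 with a difference above 0 and 13 below, with a median of -0.10 (-0.028 without diet replicate 2 and 0.0083 with a filter of 5 FPKM). Over all tested genes the median was -0.00075 and 50.3% were below 0. None of the 24 was called (limma; 4 at an unadjusted p under 0.05). The groups were apart for 3 in the lower and 1 in the higher direction, beside 8.86% and 9.63% over all tested genes. Ptpn6, which encodes the phosphatase SHP-1, had the groups apart at 17.2, 16.8 and 15.7 FPKM on the diet against 15.2, 13.3 and 14.1 FPKM with tofogliflozin (limma adjusted p = 0.298), and so did the adaptor gene Shc1 (limma adjusted p = 0.372). Tyrobp, the DAP12 adaptor that CSF1R signalling uses, was at 22.5, 43.0 and 18.9 FPKM on the diet and 18.4, 21.9 and 19.1 FPKM with tofogliflozin, and was high in diet replicate 2 only. The broadly expressed kinase gene Akt1 had a log2 difference of 0.02.

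Among 9 tested transcription factors of the myeloid lineage 5 were above 0 and 4 below (median 0.03, and from -0.017 without tofogliflozin replicate 3 to 0.085 when diet replicate 3 was left out), and none was called (limma; 2 at an unadjusted p under 0.05). Spi1 encodes PU.1, which drives Csf1r transcription. It was at 3.42, 6.20 and 3.43 FPKM on the diet and 2.48, 3.17 and 2.39 FPKM with tofogliflozin, with the groups apart (log2 difference -0.51 ± 0.20 SE, limma adjusted p = 0.332). Cebpb had the groups apart in the other direction, at 12.8, 4.97 and 13.3 against 15.5, 19.5 and 19.8 FPKM (limma adjusted p = 0.288), and was low in diet replicate 2. Cebpa had a log2 difference of 0.17, with the groups overlapping.

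The other colony-stimulating factors were at the bottom of the range. Csf2 was listed at 0.141, 0.141 and 0 FPKM on the diet and at 0 in all tofogliflozin libraries. Csf3 was listed at 0 in all but tofogliflozin replicate 3 (0.0896 FPKM). Il34 and Csf1 were thus the colony-stimulating ligands present at a level that could be compared. Of 18 genes of these factors, their receptors and the receptor kinases related to CSF1R, 11 were tested, with 4 above 0 and 7 below (median -0.07, and 0.0447 without diet replicate 2). None was called (limma; 1 at an unadjusted p under 0.05). That gene was Kitl, the ligand of the related receptor Kit, at 3.82, 4.12 and 2.79 FPKM on the diet and 5.16, 4.80 and 5.21 FPKM with tofogliflozin (log2 difference 0.42 ± 0.13 SE, limma adjusted p = 0.225). Its groups were apart in the direction opposite to Il34. The growth factor genes Pdgfb and Pdgfd, ligands of other kinases of this class, came next (log2 differences -0.30 and -0.23; limma adjusted p = 0.382 and 0.437).

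Of the 19 tested macrophage markers 17 had a difference below 0 and 2 above, beside 50.3% below 0 over all tested genes. Their median was -0.43, and none was called (limma, with 1 at an unadjusted p under 0.05). The groups were apart for 0 of 19 markers, beside 8.86% of all tested genes in the lower and 9.63% in the higher direction. The median was -0.06 without diet replicate 2, -0.71 without diet replicate 3 and -0.26 without tofogliflozin replicate 3, so it depends on which libraries are kept. For Csf1r itself the difference was -0.38 without diet replicate 2 and -0.47 without diet replicate 3. Cd68, a lysosomal protein of macrophages, was at 3.36, 6.82 and 3.6 FPKM on the diet and 3.81, 2.21 and 2.40 FPKM with tofogliflozin. Adgre1, which encodes F4/80, was at 3.27, 7.02 and 1.87 against 2.5, 2.62 and 1.27 FPKM. Laptm5, a lysosomal gene of leukocytes, was at 12.97, 19.1 and 8.28 against 10.2, 8.74 and 8.25 FPKM. Lyz2, a lysozyme gene, had the smallest p of the list at 28.1, 88.9 and 17.7 against 11.9, 19.1 and 10.7 FPKM (limma adjusted p = 0.312).

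Monocyte recruitment genes were mostly low. Of 9 chemokine genes 4 were tested, all 4 with a difference below 0 (median -0.28, and from -0.63 without diet replicate 3 to -0.17 without tofogliflozin replicate 3) and none called (limma; 0 at an unadjusted p under 0.05). Cx3cl1, fractalkine, was at 28.1, 30.2 and 28.7 FPKM on the diet and 26.8, 27.0 and 20.6 FPKM with tofogliflozin, with the groups apart. Of 6 monocyte marker genes 3 were tested (median -0.24, but -0.012 without diet replicate 2 and -0.10 with no filter) and none was called (limma; 0 at an unadjusted p under 0.05). Ccr2, the receptor of inflammatory monocytes, was at 1.97, 5.04 and 1.65 against 2.03, 1.84 and 1.94 FPKM, high in diet replicate 2.

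NF-κB induces both Il34 and Csf1 in many cells. Of 16 tested genes of that pathway 13 were below 0 and 3 above (median -0.16, and from -0.25 without diet replicate 3 to -0.093 without diet replicate 2). None of the 16 was called (limma, with 5 at an unadjusted p under 0.05). Over all tested genes 50.3% were below 0, and 1604 of 12248 had an unadjusted limma p under 0.05. With the groups apart, 4 of the 16 were lower and 1 higher (8.86% and 9.63% over all tested genes). Bcl3, an NF-κB cofactor, came closest, at 5.10, 5.08 and 5.14 FPKM on the diet and 3.05, 2.55 and 3.19 FPKM with tofogliflozin (limma adjusted p = 0.0541). Icam1, an adhesion molecule induced by NF-κB, and Myd88, a Toll-like receptor adaptor, were also lower with the groups apart (log2 differences -0.37 and -0.35; limma adjusted p = 0.171 and 0.196). Nfkbia, the inhibitor of NF-κB that the pathway itself induces, had the groups apart in the other direction (0.56; limma adjusted p = 0.202). Rela and Nfkb1, which encode subunits, had log2 differences of -0.11 and -0.04. The cytokine gene Il6 was listed at 0 in every library.

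Markers of the tubular epithelium, where Il34 is known to be made, had differences on both sides of 0. Of 10 proximal tubule markers 5 were above 0 and 5 below (median -0.06, and -0.029 without diet replicate 2). Their sum lay between 5762 and 6887 FPKM on the diet and between 5952 and 6259 FPKM with tofogliflozin. Slc34a1 (2128 to 2645 FPKM over all libraries) and Miox (1376 to 2117 FPKM) weigh most in that sum. None was called (limma; 3 at an unadjusted p under 0.05: Slc5a12, Slc7a13 and Slc22a6, with log2 differences of 0.43, -0.26 and -0.31). Slc5a2 encodes SGLT2, which the drug inhibits, and was at 172, 150 and 221 against 161, 168 and 163 FPKM. The 9 distal nephron markers had a median of 0.19, with 7 above 0, and the 8 tested markers of tubular injury a median of 0.15, with 7 above 0. None of these was called (limma; 3 and 1 at an unadjusted p under 0.05). Podocyte, endothelial and fibroblast markers had medians of 0.13, 0.03 and 0.08 over 5, 7 and 6 tested genes. The 2 tested lymphocyte, 3 dendritic cell and 2 neutrophil markers had medians of -0.22, -0.11 and 0.47. Several of these medians moved with 1 library. That of the distal nephron markers was 0.11 without diet replicate 1 and 0.30 without diet replicate 2, and that of the injury markers 0.087 without tofogliflozin replicate 2. Without diet replicate 3 the lymphocyte and dendritic cell medians were -0.61 and -0.40. Without diet replicate 2 the lymphocyte and dendritic cell medians were 0.021 and 0.079. Without tofogliflozin replicate 1 the endothelial and fibroblast medians were -0.018 and -0.12. Without tofogliflozin replicate 3 the lymphocyte, endothelial and fibroblast medians were 0.033, 0.12 and 0.28, and without diet replicate 3 the endothelial median was -0.035. None of the markers in these 6 lists was called (limma; 1, 0, 0, 0, 0 and 1 at an unadjusted p under 0.05, in the order given). The part of any cell type in the level of Il34 was not tested.

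**Figure D5:**
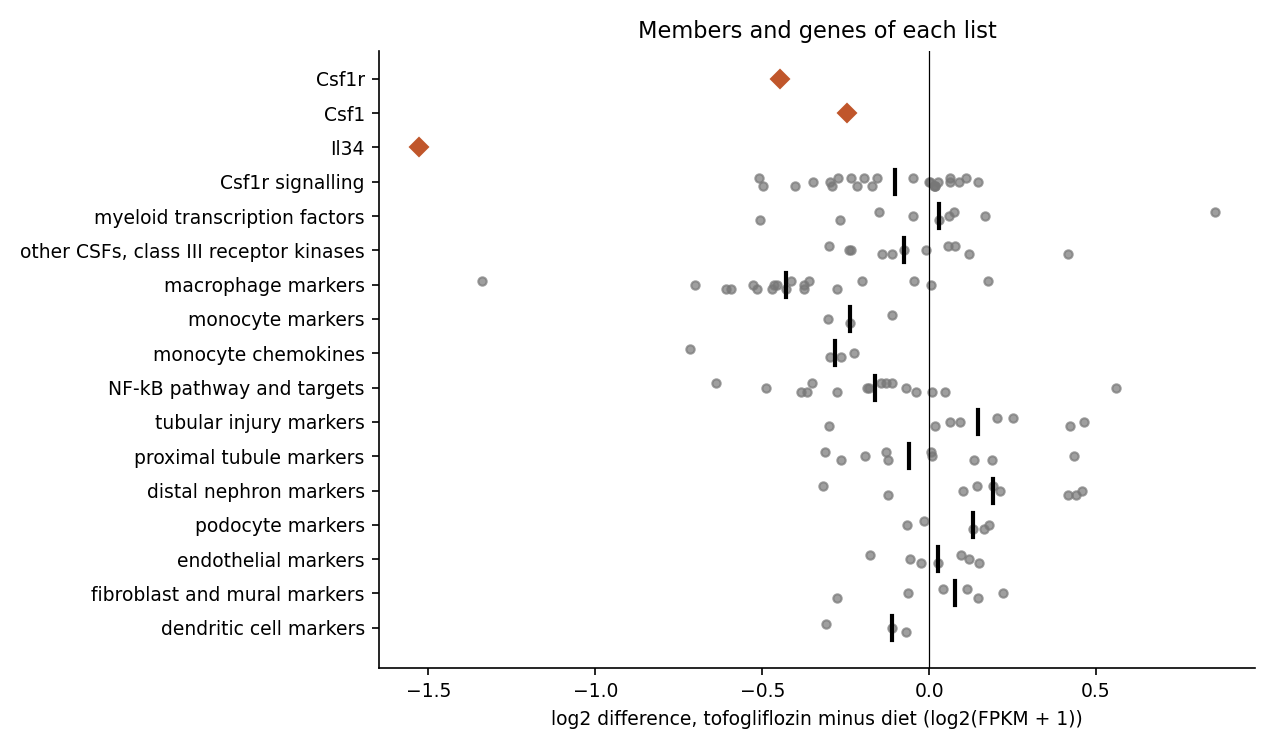
Log2 difference, tofogliflozin minus diet, on the log2(FPKM + 1) scale for the members (diamonds) and for each tested gene of the lists with at least 3 tested genes (points, with the median as a bar). Il34 at -1.53 lies left of every list gene shown, and the macrophage markers have the lowest median, at -0.43.

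In the GRCm38 annotation (GENCODE, the build of the files) Il34 spans bases 110741829 to 110805924 of chromosome 8 (minus strand). Csf1 spans bases 107741048 to 107760469 of chromosome 3 (minus strand) and Csf1r bases 61100598 to 61132149 of chromosome 18 (plus strand). The values are for whole genes and do not tell their 5, 7 and 6 annotated transcripts apart. Il34 overlaps Gm15894 and Gm15895 and Csf1r overlaps Hmgxb3, all on the other strand. Csf1r also overlaps Mir6983, on its own strand. The sources used here do not say whether counting used strand, so reads of the pairs on opposite strands may not be fully separated. Csf1 overlaps no annotated gene.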

How the data were processed

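RNA of the renal cortex was extracted with a column kit and made into strand-specific mRNA libraries, per the labels' protocols. The authors deposited 1 FPKM table per library. The submitters' processing notes name TopHat2 2.1.1, Bowtie2 2.2.8, SAMtools 0.1.18, Cuffdiff 2.2.1 and mm10; the sources used here do not give their roles, the annotation, strand use or library scaling. Total FPKM ran from 565754 to 633338 per library, and the correlation between libraries from 0.980 to 0.990.

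From these values log2(FPKM + 1) was computed for genes that reached 1 FPKM in 3 or more libraries and fitted with limma 3.58.1 in R 4.3.3 (mean-variance trend, two-sided, Benjamini-Hochberg over all 12248 genes, threshold 0.05). A fold on this scale understates that of low genes. Depth was estimated from 2039 genes below 0.3 FPKM in every library and from the lengths of 331 single-transcript genes. Libraries were first scaled by a relative depth fitted to those same low values. After scaling, 78.8% of 6203 values were whole multiples of that gene's smallest value to within 0.02. That share is not independent of the fit. For diet replicate 1 the quartiles of the estimate over the single-transcript genes were 6700000 and 7980000 fragments. No count test was run, and counting errors cover counting only.

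Groups and replicate numbers follow the labels. P-values set a group difference against the spread between these mice, which limma moderates by that of all tested genes. They cover no variation beyond these mice. The members and 17 gene lists were chosen with earlier results of these data known. Named genes are the members, a fixed set, from the lists those of smallest p (some only counted or not reported here), and the 5 genes most like each member, predicted genes left out; Akt1, Rela, Nfkb1, Timd4, Cd163 and Il6 were chosen after their values were seen. Alternatives were a pseudocount of 0.1, no filter, a filter of 5 FPKM, upper-quartile scaling, quantile normalization, no trend, the replicate number as a block and leaving out each library. Python 3.11.15 and matplotlib 3.10.9 drew the figures.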

Additional observations from a re-analysis of the deposited data

How the results depend on the processing

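The differences of Il34, Csf1 and Csf1r were below 0 in every alternative that gave a value (13, 12 and 13 settings). Leaving out a library in turn gave -1.79 to -1.25 for Il34, -0.42 to -0.06 for Csf1 and -0.56 to -0.33 for Csf1r. The log2 ratio of Il34 to Csf1 ran from -1.83 to -1.03; pseudocount, filter, trend and block do not enter it. Csf1 was below the filter of 5 FPKM. The count of members called, an alternative added after the data were seen, was 0 in all settings except without diet replicate 2, where Il34 was called (0 to 1 over the libraries left out; limma adjusted p of Il34 0.0738 with all 6 libraries and 0.0317 to 0.310 over the alternatives). Of 31 genes called in all, 1 was left with no filter, 20 with the filter of 5 FPKM, 47 with upper-quartile scaling and 2 to 70 with a library left out. The lowest of these was without tofogliflozin replicate 3 and the highest without diet replicate 2. With the replicate block 26 genes were called and 0 members. After the mean of each group was removed from every gene, same-numbered libraries correlated at -0.05, -0.06 and 0.05. Libraries of different number were not set beside them, so whether the numbers pair the mice was not tested. No list gene was called in any setting (0 each). The median of the IL-34 partners was -0.13 with no filter, that of podocyte markers 0.0586 with the 5 FPKM filter, and that of the other colony-stimulating factors and related kinases ran from -0.15 to 0.0447 with a library left out. For median r with macrophage markers, leave-outs chosen after the data were seen gave 0.82 to 0.96 for Csf1, 0.41 to 0.87 for Csf1r and 0.05 to 0.45 for Il34. Depth limits Csf1 most, at about 73.1 to 142.5 fragments per library on its longest transcript.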
